A study of Arabidopsis thaliana with 18 samples.

Results

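The 6 arrays of the lecrk-VI.2-2 mutant, of 18 in the study, measured what remained of the systemic response to Pseudomonas syringae pv. maculicola (Psm) when the lectin receptor kinase LecRK-VI.2 was mutated. The members were every array labelled with this genotype, 3 after Psm (+SAR) and 3 after mock treatment (−SAR). On each plant 3 lower leaves were infiltrated with Psm at OD600 = 0.002 in 10 mM MgCl2, or with 10 mM MgCl2 alone, and 2 untreated systemic leaves were taken after 48 h. Each RNA sample pooled leaves of 12 plants. The mutant is a single insertion line in the ecotype Col-0, and the other 12 arrays hold the Col-0 wild type and the bak1-5 mutant of the co-receptor kinase BAK1 under the same treatments and at the same time. The comparison asks which genes of distant leaves still respond when this receptor kinase is mutated.

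Systemic acquired resistance (SAR) is an immune state of the whole plant that follows a local infection. Signals made in the infected leaf travel to distant leaves, where salicylic acid (SA) accumulates and the co-activator NPR1 switches on pathogenesis-related genes and the endoplasmic reticulum (ER) chaperones needed to secrete their products. Jasmonic acid (JA), a hormone of wounding and herbivory, is known to antagonise SA responses in many settings. LecRK-VI.2 is a kinase of the plasma membrane with a lectin domain on the outer side, and the study examined it as a receptor of extracellular NAD(P)+.

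Values are log2 signals from ATH1 arrays made by Robust Multichip Analysis (RMA), so a difference of 1 is a 2-fold change. Levels of different probe sets cannot be set against each other. A probe set was called raised or lowered when the limma q value, adjusted over all 22746 probe sets, was 0.05 or less and the change was at least 2-fold. Single genes and members of gene lists were judged by the q value alone, and changes are given with their standard error (SE) for 3 arrays against 3. SE and q use 1 spread per probe set, estimated from all 18 arrays and shared by the 6 groups. They are therefore not the scatter of the 6 mutant arrays alone. The arrays name 14482 probe sets with 1 gene, 1009 of them only by matching to the study's own list of genes changed in the wild type. The copy of that list used here held the 1997 rows with a wild-type change of 0.33 or more, so the genes that can be named lean towards those that rose there. Probe sets ending in _s_at match transcripts of several related genes, and which of these was measured is uncertain.

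Between 18.23% and 19.65% of probe sets read 6 or more on the 12 arrays of the wild type and bak1-5. The share was lower on MgCl2 replicate 2 (15.99%) and Psm replicate 3 (16.83%) of lecrk-VI.2-2, and 18.75% to 19.37% on its other 4 arrays. The median SD between replicates was 0.14 for the mutant's MgCl2 arrays and 0.13 for its Psm arrays, against 0.09 in each wild-type group. The shared spread can therefore make the SE of the mutant's changes too small. LecRK-VI.2 itself was dim in all groups and read 5.59, 5.52 and 5.57 in the MgCl2 arrays and 5.63, 5.68 and 5.45 in the Psm arrays of the mutant, a range that overlaps the 5.44 to 5.55 of mock-treated wild type. After Psm the wild type read 5.78 to 5.91, above all 6 arrays of the mutant, and the difference between the changes did not pass the test (q = 0.25). By the study's own account, from qPCR, the line is a knockdown that keeps part of the transcript. In mock-treated leaves this dim probe set showed no lower level in the mutant. It is a measure unlike qPCR, so it neither bears out the genotype label nor contradicts it. RCA, the Rubisco activase of leaf mesophyll, read 12.65 to 12.79 on all 6 arrays, and PYK10, a root myrosinase, 3.38 to 3.78. Of 38 marker genes of guard cells, epidermis, veins, dividing cells, roots and mesophyll, 7 could be named and none passed the test between treatments, with a lowest q of 0.49. In whole leaves, fewer cells of a type and less RNA per cell cannot be told apart.

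Few probe sets responded past the threshold in the mutant. In lecrk-VI.2-2, 55 probe sets were raised (0.242% of those tested) and 26 were lowered (0.114%). By the q value alone 138 rose (0.607%) and 110 fell (0.484%), so 83 rises and 84 falls were under 2-fold. These shares stand beside each count of list members that rose or fell. The named members lean towards genes that rose in the wild type. The median rise of the 55 was 1.53 on the log2 scale, with a range from 1.01 to 3.61, and the median change of the 26 lowered was -1.24. In all 81 cases the 3 Psm arrays lay wholly on one side of the 3 MgCl2 arrays, which the choice by size and q on these same arrays nearly fixes. Over all probe sets this held for 4.88% upward and 4.94% downward. The counts depended on single arrays. Of the 55 raised, 32 kept the call without Psm replicate 2 and 34 without MgCl2 replicate 2, and 27 kept it whichever array was left out. Of the 26 lowered, 17 kept it without MgCl2 replicate 3 and 16 whichever array was left out.

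The 6 largest rises among named genes were, in order, those of GSTF3, VSP1, CLH1, AT5G55450, LLP1 and LURP1, and VSP1 and CLH1 are described with the JA genes. The probe set of GSTF3, a glutathione S-transferase of the phi class, rose most of the 52 raised probe sets assigned to 1 gene. It is an _s_at probe set, so a related gene may have been measured. GSTF3 read 6.89, 5.02 and 5.83 in the MgCl2 arrays and 8.99, 9.19 and 8.83 in the Psm arrays (replicates 1, 2 and 3 in each). The Psm arrays lay close together, well above widely spread mock-treated leaves. The change of 3.09 ± 0.32 (q = 2.4e-05) was 8.51-fold. GSTF6, measured by a probe set shared with related transferases, read 5.81, 5.63 and 5.34 after MgCl2 and 6.86, 7.63 and 7.47 after Psm. Its rise of 1.73 ± 0.16 (q = 8.9e-06) also separated the groups fully. With GSTF8, a further phi-class enzyme (0.82 ± 0.15, q = 0.0095, or 0.06 without Psm replicate 2), they were the 3 of 9 named genes of glutathione transferases and redox enzymes that rose. Over all probe sets 0.607% rose by q alone. This is not a like background, since the platform's annotation named 1 of the 9 and the others were named through the list of wild-type rises.

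AT5G55450, which encodes a small protein of the lipid-transfer family, gave one of the tightest responses. It read 5.32, 4.95 and 4.84 in the MgCl2 arrays and 7.57, 7.81 and 7.75 in the Psm arrays. This is a rise of 2.67 ± 0.19, or 6.37-fold (q = 1.5e-07). LLP1, a legume lectin-like protein with a known part in systemic signaling and 1 of 2 risers among 5 named genes of SAR signals, read 8.64, 6.90 and 7.69 against 10.47, 10.32 and 10.18. Here the Psm arrays were close together and the mock arrays far apart (SD 0.15 and 0.87), and the change was 2.58 ± 0.30 (q = 0.00011). AT5G10760, which encodes the apoplastic aspartyl protease AED1, read 4.80, 4.51 and 4.31 against 6.40, 6.19 and 6.31. Its rise was 1.76 ± 0.18 (q = 2.3e-05).

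**Figure D1:**
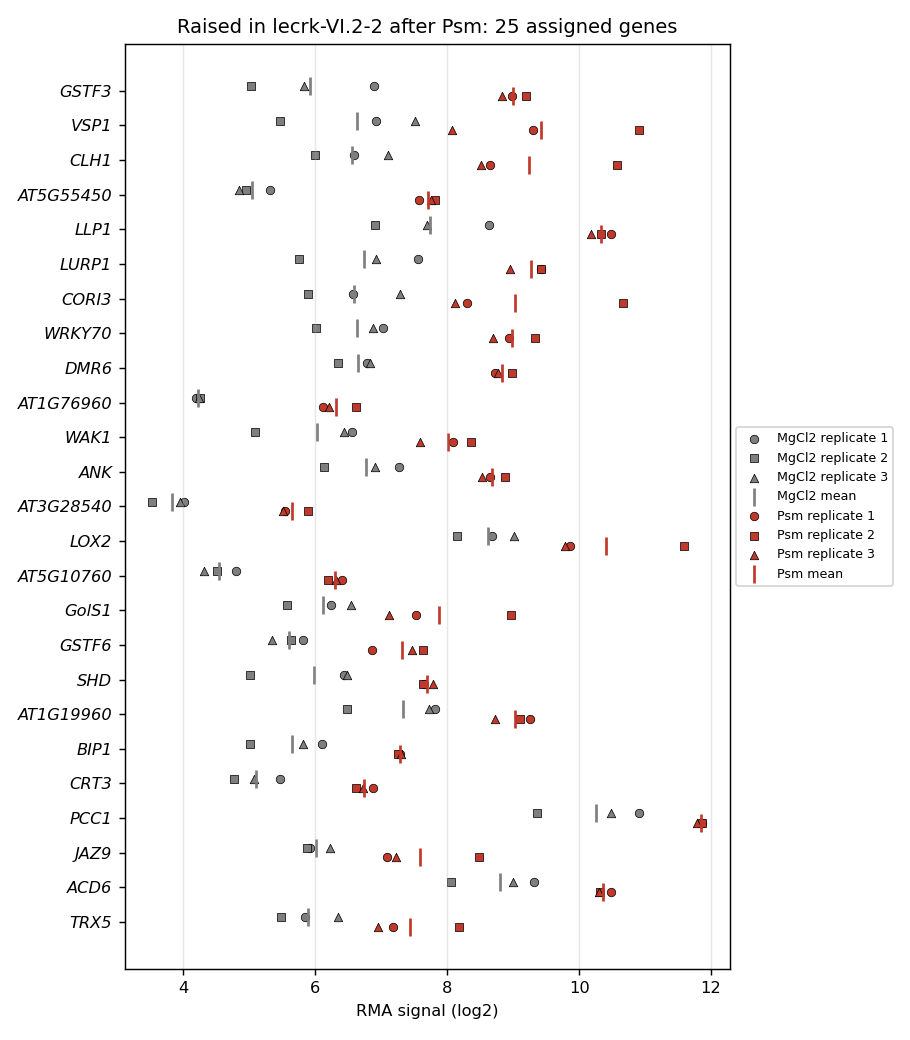
RMA signal (log2, x axis) of the 25 named genes with the largest rise in lecrk-VI.2-2, 1 row a gene. Grey symbols are the 3 MgCl2 arrays, red symbols the 3 Psm arrays, and vertical ticks the group means. For every gene shown the red symbols lie to the right of the grey ones, and for VSP1, CLH1, CORI3, LOX2, GolS1 and JAZ9 the red square, Psm replicate 2, stands apart from the other Psm arrays.

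Of the listed groups, SA-responsive genes held the most rises. Of 20 listed, 18 could be named, and 9 of the 18 rose in lecrk-VI.2-2 (background 0.607% of all probe sets). The wild type raised all 18 (background 7.36% by q alone). The platform's annotation named 1 of the 18. The others were named through the study's list, whose rows used here all rose in the wild type. That nearly fixes the wild-type count, and neither background is a like one. The median change of the 18 was 1.16 against -0.001 over all probe sets and 3.36 for the same genes in the wild type. The list mean lay 1.05, 1.36 and 0.93 above the mock mean on Psm replicates 1, 2 and 3. WRKY70, a transcription factor that promotes SA and restrains JA responses, read 7.03, 6.0 and 6.87 after MgCl2 and 8.94, 9.33 and 8.70 after Psm. It rose by 2.35 ± 0.22, or 5.1-fold (q = 8.9e-06), and the difference from the wild-type rise of 3.34 did not pass the test (q = 0.16). LURP1, named for its late up-regulation after oomycete recognition, read 7.55, 5.76 and 6.92 against 9.42, 9.42 and 8.96, a rise of 2.52 ± 0.30 (q = 0.00017). ACD6, a membrane protein of an SA amplification loop, went from 9.32, 8.06 and 9.0 to 10.48, 10.32 and 10.29. The Psm arrays of ACD6 were nearly equal and the rise was 1.57 ± 0.23 (q = 0.001), not told apart from the wild-type change of 2.11 (q = 0.67).

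PCC1, a small protein of defence and the circadian cycle, behaved alike, with 10.91, 9.36 and 10.48 after MgCl2 and 11.87, 11.86 and 11.79 after Psm, a change of 1.59 ± 0.30 (q = 0.01). TRX5, a thioredoxin that acts on NPR1, rose by 1.55 ± 0.32 (q = 0.022), but without Psm replicate 2 its q was 0.14, and without MgCl2 replicate 1 or 2 it was 0.065 and 0.063. WRKY54, a close relative of WRKY70 with a dim probe set, rose by 0.72 ± 0.14 (q = 0.013, or 0.095 without Psm replicate 2). DMR6, an enzyme that hydroxylates SA, rose by 2.18 ± 0.11 (q = 3.6e-09), and WAK1 and PR5 complete the 9. The test of the difference placed 8 of the 18 below the wild type, beside 1.11% of all probe sets. Naming through wild-type rises favours this direction, so 1.11% is not a like background.

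The 9 that did not pass included PR1 and PR2, the pathogenesis-related genes most used as markers of SAR, shown here for that reason after their values were seen. PR1 read 6.20, 5.79 and 6.05 in the MgCl2 arrays and 6.19, 6.47 and 6.27 in the Psm arrays, so the groups overlapped. Its change of 0.29 ± 0.15 (q = 0.6) was 3.5 smaller than the 3.80 of the wild type (difference q = 5.7e-08). PR2, a beta-1,3-glucanase, read 4.69, 3.83 and 3.97 against 5.42, 6.47 and 5.46, with all Psm arrays above all mock arrays. Its change of 1.62 ± 0.42 (q = 0.085) did not pass, and was 4.26 smaller than the 5.88 of the wild type (difference q = 0.00082), the largest such difference on the list. DLO1, which also turns over SA, changed by 0.57 ± 0.19 (q = 0.25, 2.89 below the wild type) and AIG1, an early defence gene, by 0.08 ± 0.09 (q = 0.93). The changes over 1 list therefore ran from 2.52 for LURP1 to values near 0.

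Genes of SA synthesis and signaling did not respond past the threshold in lecrk-VI.2-2. None of the 11 named had a q of 0.05 or less, and all 11 changes were above 0 with a median of 0.27. PAD4, a lipase-like partner of EDS1, changed by 0.51 ± 0.13 (q = 0.075) and NPR4, an SA receptor, by 0.36 ± 0.11 (q = 0.18). EDS1 itself changed by 0.36 ± 0.10 (q = 0.12). The probe sets of 6 of the 11 were dim. In the wild type all 11 rose, and for 5 of them the change in the mutant was smaller by the test of the difference. The platform's annotation named 1 of the 11, and the others were named through the list of wild-type rises. That nearly fixes the wild-type count and favours a smaller change in the mutant.

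Several genes for receptors and signaling proteins at the cell surface rose. WAK1, a wall-associated kinase that binds pectin and responds to SA, read 6.55, 5.09 and 6.43 in the MgCl2 arrays and 8.09, 8.35 and 7.59 in the Psm arrays, and rose by 1.99 ± 0.28 (q = 0.001). CRK4, a cysteine-rich receptor kinase, read 6.45, 5.82 and 6.82 against 7.75, 7.98 and 7.93, with a rise of 1.53 ± 0.17 (q = 0.00011). These were the 2 of 10 named wall-associated and cysteine-rich kinases that rose. AT1G35710, a leucine-rich repeat receptor kinase, had flat mock values of 5.07, 5.05 and 5.17 and read 6.49, 6.29 and 6.29 after Psm. Its rise of 1.26 ± 0.16 (q = 0.00032) was smaller than that of the wild type by 1.90 (difference q = 0.00013). ANK (AT5G54610), an ankyrin-repeat membrane protein also called BDA1, rose by 1.91 ± 0.20 (q = 3e-05) from 7.28, 6.12 and 6.91 to 8.64, 8.87 and 8.52.

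SOBIR1, the kinase that partners receptor-like proteins, was the 1 of 10 named genes of pattern-triggered immunity that rose. It read 6.74, 6.0 and 6.95 against 7.64, 8.55 and 7.79, a rise of 1.43 ± 0.29 (q = 0.02) that had a q of 0.13 without Psm replicate 2 and 0.062 without MgCl2 replicate 2. HR4, a homologue of the RPW8 resistance proteins, was the 1 of 5 named genes of intracellular immune receptors and their chaperones that rose, by 1.11 ± 0.20 (q = 0.0075, or 0.056 without Psm replicate 2). None of 3 named L-type lectin receptor kinases passed the test. LecRK-IV.3 changed by 0.44 ± 0.12 (q = 0.11), LecRK-VI.1 by 0.31 ± 0.14 (q = 0.51) and LecRK-VI.2 by 0.03 ± 0.09 (q = 0.99).

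Of 21 named genes of ER folding, which include its chaperones, 7 rose in lecrk-VI.2-2 (0.607% of all probe sets did) and 14 did not pass. The median change over the list was 0.37 against 1.45 in the wild type. Relative to the mock mean the list mean was 0.61, 0.59 and 0.56 on Psm replicates 1, 2 and 3, and 0.16, -0.26 and 0.10 on MgCl2 replicates 1, 2 and 3, so the Psm arrays were steady and the mock arrays were not. SHD, the HSP90 of the ER, read 6.43, 5.02 and 6.47 in the MgCl2 arrays and 7.65, 7.64 and 7.78 in the Psm arrays, a rise of 1.71 ± 0.27 (q = 0.0025). The probe set of BIP1, shared with another luminal HSP70, read 6.09, 5.01 and 5.81 against 7.28, 7.26 and 7.30, a rise of 1.64 ± 0.20 (q = 0.00025). For both, the 3 Psm arrays nearly coincided (SD 0.08 for SHD and 0.02 for BIP1), and MgCl2 replicate 2 was the lowest of the mock arrays.

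CRT3, a calreticulin needed for the folding of immune receptors, rose by 1.64 ± 0.15 (q = 6.3e-06) and CNX1, a calnexin, by 1.07 ± 0.21 (q = 0.016). The call of CNX1 had a q of 0.056 without Psm replicate 2, 0.055 without Psm replicate 3 and 0.05 without MgCl2 replicate 2. The other 3 rises were under 2-fold. SDF2, an ER quality control protein, rose by 0.90 ± 0.16 (q = 0.0056), and CRT1b and PDIL1-1, a calreticulin and a disulfide isomerase, by 0.78 ± 0.16 (q = 0.023) and 0.70 ± 0.16 (q = 0.045). CRT1b kept its q under 0.05 only without MgCl2 replicate 1 (0.03), with 0.059 to 0.083 without each other array, and PDIL1-1 lost it whichever array was left out (0.077 to 0.15). For 14 of the 21 genes the wild type changed more, by the test of the difference, beside 1.11% of all probe sets. The platform's annotation named 5 of the 21, and the others were named through the list of wild-type rises. Such naming favours a smaller change in the mutant, so 1.11% is not a like background.

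Of 8 named heat shock genes, 3 rose (0.607% of all probe sets did) and 5 did not pass. The platform's annotation named 2 of the 8, and the others were named through the list of wild-type rises, so 0.607% is not a like background. HSP70 (AT3G12580), a heat-inducible chaperone, read 4.65, 4.19 and 4.68 in the MgCl2 arrays and 5.56, 5.71 and 5.46 in the Psm arrays, a rise of 1.07 ± 0.17 (q = 0.0027). HSC70-1, a constitutive relative, read 9.99, 9.69 and 10.28 against 10.70, 10.64 and 10.76, a rise of 0.71 ± 0.12 (q = 0.0066). HSP17.4, a small heat shock protein, rose by 0.92 ± 0.21 (q = 0.04), which became 0.25 without Psm replicate 2 and 0.12 without Psm replicate 1 or MgCl2 replicate 2, and 0.058 without MgCl2 replicate 3. For none of the 8 did the difference from the wild type pass. The shared probe set of Hsp81.4, an HSP90, rose by 1.32 ± 0.25 (q = 0.0096, or 0.056 without Psm replicate 1), beside 1.31 in the wild type.

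**Figure D2:**
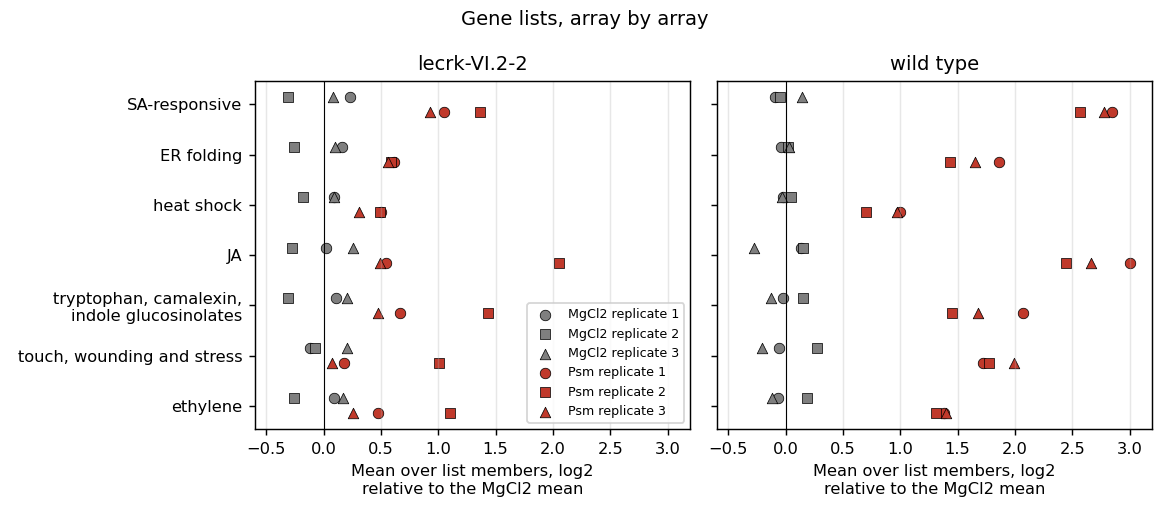
Mean over the named members of 7 gene lists on each array, in log2 relative to the mean of the 3 MgCl2 arrays of the same genotype (x axis), in lecrk-VI.2-2 (left) and the wild type (right). Symbols mark replicates and colours the treatment. In lecrk-VI.2-2 the JA list sits at 0.54, 2.05 and 0.49 on Psm replicates 1, 2 and 3, while the ER folding list sits at 0.61, 0.59 and 0.56.

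Of 29 named genes of jasmonate synthesis and response, 5 rose (0.607% of all probe sets did) and 24 did not pass. Their median change was 0.81 against 2.75 in the wild type. The platform's annotation named 2 of the 29, and the others were named through the list of wild-type rises. On Psm replicates 1, 2 and 3 the list mean was 0.54, 2.05 and 0.49, a range of 1.56, where the wild-type arrays read 3.00, 2.45 and 2.66, a range of 0.55. CLH1, a chlorophyllase of the wound response, read 6.58, 5.99 and 7.10 in the MgCl2 arrays and 8.64, 10.57 and 8.51 in the Psm arrays. Its rise of 2.69 ± 0.47 (q = 0.0056) kept its call whichever array was left out. The shared probe set of VSP1, a vegetative storage protein, read 6.92, 5.46 and 7.52 against 9.31, 10.91 and 8.06, and Psm replicate 3 exceeded the highest mock array by little. The rise of VSP1 of 2.80 ± 0.63 (q = 0.038) had a q of 0.23 without Psm replicate 2, 0.11 without MgCl2 replicate 2, 0.095 without Psm replicate 1 and 0.069 without MgCl2 replicate 1.

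LOX2, the chloroplast lipoxygenase of JA synthesis, read 8.68, 8.15 and 9.01 against 9.86, 11.59 and 9.78, a rise of 1.80 ± 0.38 (q = 0.025). JAZ9, a repressor of JA responses that is itself induced by JA, read 5.91, 5.87 and 6.22 against 7.08, 8.48 and 7.22, a rise of 1.59 ± 0.33 (q = 0.023). In both, 2 of the 3 Psm arrays were nearly equal and above all mock arrays, and Psm replicate 2 was higher again. Without that array the q was 0.1 for LOX2 and 0.13 for JAZ9, without MgCl2 replicate 1 it was 0.063 and 0.07, and for LOX2 without MgCl2 replicate 2 it was 0.07. CORI3, a cystine lyase, was the other gene that rose, by 2.45 ± 0.53 (q = 0.027), with a q of 0.11 without Psm replicate 2, 0.071 without MgCl2 replicate 1 and 0.074 without MgCl2 replicate 2. GolS1, a galactinol synthase outside the list, showed the same form, with 6.24, 5.56 and 6.54 after MgCl2 and 7.53, 8.97 and 7.11 after Psm. Its rise was 1.76 ± 0.40 (q = 0.037), and the q was 0.2 without Psm replicate 2, 0.055 without Psm replicate 1, 0.1 without MgCl2 replicate 2 and 0.072 without MgCl2 replicate 1.

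Psm replicate 2 stood apart from every other array of its genotype in this respect. It read at least 1 log2 unit above all 5 other lecrk-VI.2-2 arrays on 113 probe sets, while Psm replicates 1 and 3 did so on none and the MgCl2 replicates on 0, 3 and 2. Within the wild type and bak1-5 the highest such count for 1 array was 10. The median of the 113 on Psm replicate 2 was 1.96 above the mock mean, and on the mean of Psm replicates 1 and 3 it was 0.34. Of the 113, 108 were raised in the wild type (2.48% of all probe sets were), with a median wild-type change of 2.82. The 5 that were not were MGL, HIPP25, TPS04, AT2G38240 and a probe set without a single gene. In lecrk-VI.2-2, 8 of the 113 passed the test, namely VSP1, CLH1, CORI3, LOX2, JAZ9, GolS1, AT5G52750 and 255065_s_at. Choosing the 113 by 1 high array favours a wide spread between the Psm arrays, which works against passing.

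Of the 29 named JA genes 17 were among the 113, out of 22746 probe sets tested. They included LOX2, AOS, AOC1 and OPR3 of the synthesis pathway, JAZ1, JAZ5, JAZ7, JAZ9 and JAZ10 of its repressors, and the transcription factor MYC2. Of the SA-responsive genes 2 of 18 were present, PR2 and GRX480. The platform's annotation named 2 of the 29 and 1 of the 18, and the others were named through the list of wild-type rises. Since 108 of the 113 were raised in the wild type, such naming favours both counts. The mean of the touch, wounding and stress list was also highest on Psm replicate 2 (1.01, against 0.18 and 0.07 on replicates 1 and 3). The largest excess was in TAT3, a tyrosine aminotransferase induced by wounding, with 3.75 over the next array. BSMT1, which methylates SA and benzoic acid, read 4.03, 4.02 and 3.88 in the MgCl2 arrays and 4.53, 9.20 and 5.83 in the Psm arrays, an excess of 3.36. NATA1, which acetylates ornithine, read 5.14, 5.34 and 5.28 against 5.76, 8.97 and 5.71, and AAS, an aromatic aldehyde synthase, 5.66, 5.24 and 5.67 against 5.86, 9.23 and 6.0.

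In each of these genes Psm replicates 1 and 3 lay far below replicate 2, and close to mock-treated leaves for NATA1 and AAS. JAZ10 read 4.66, 7.52 and 4.74 after Psm beside 4.50, 4.61 and 4.75 after MgCl2, so that replicates 1 and 3 did not leave the mock range. The excess was 3.25 in AT4G24350, 3.00 in AT3G28220, 2.81 in PGL5, a 6-phosphogluconolactonase, and 2.77 in JAZ10. None of these 8 genes passed the test in the mutant, with q from 0.13 for TAT3 to 0.69 for JAZ10. Their choice by 1 high array nearly fixes this outcome. The share of probe sets at 6 or more on Psm replicate 2 was 19.01%, within the range of the other arrays.

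**Figure D3:**
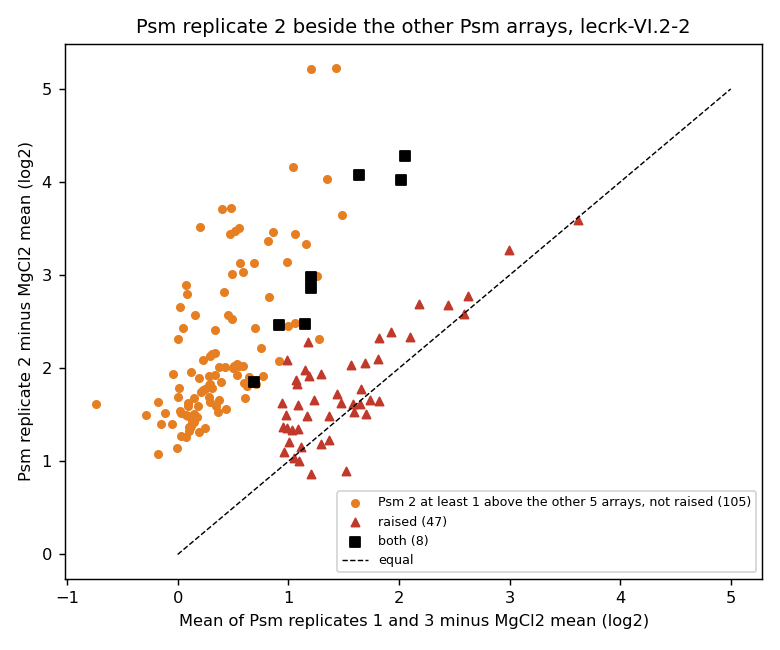
Each point is a probe set of lecrk-VI.2-2, with the mean of Psm replicates 1 and 3 minus the MgCl2 mean on the x axis and Psm replicate 2 minus the MgCl2 mean on the y axis (log2). Orange points read at least 1 higher in Psm replicate 2 than in all 5 other arrays without being called, black squares did so and were called raised (8), red triangles are the other 47 raised probe sets, and the dashed line marks equal values. The orange points lie near 0 to 1 on the x axis, whereas most triangles lie near the line.

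Among tryptophan and indole glucosinolate genes 2 of 11 named rose, and Psm replicate 2 was again the highest array for both. CYP79B2, which converts tryptophan to indole-3-acetaldoxime, read 5.83, 5.60 and 5.72 in the MgCl2 arrays and 6.87, 7.81 and 6.54 in the Psm arrays, a rise of 1.36 ± 0.26 (q = 0.011, or 0.056 without Psm replicate 2). CYP83B1, the next enzyme of the indole glucosinolate route, read 8.12, 7.55 and 8.39 against 9.18, 9.86 and 9.03, a rise of 1.33 ± 0.24 (q = 0.0082, or 0.058 without Psm replicate 2). All 11 had positive changes with a median of 0.77, and in 10 of the 11 the 3 Psm arrays lay above the 3 MgCl2 arrays (4.88% of all probe sets did). The platform's annotation named 1 of the 11, and the others were named through the list of wild-type rises. The 4.88% is therefore not a like background. The list mean was 0.67, 1.43 and 0.47 on Psm replicates 1, 2 and 3. For none of the 11 did the difference from the wild-type change pass the test, although the median in the wild type was 1.61.

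Of 6 named ethylene genes 1 rose, PR4, a chitin-binding defence protein. It read 5.19, 3.88 and 4.86 against 6.08, 6.56 and 5.59 and rose by 1.43 ± 0.28 (q = 0.012, or 0.087 without Psm replicate 2), beside 1.63 in the wild type. None of 18 named genes of touch, wounding and stress passed the test. Their list mean was 0.18, 1.01 and 0.07 on Psm replicates 1, 2 and 3, and the 2 with the largest changes were the zinc finger gene ZAT10 (1.4 ± 0.62, q = 0.48) and the deadenylase gene CAF1a (0.91 ± 0.54, q = 0.71).

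Of the 55 raised probe sets 53 were also raised in the wild type, where 2.48% of all probe sets were, and all 55 in bak1-5, where 0.972% were. The exceptions were AO and G3Pp1. AO, the L-aspartate oxidase that opens NAD synthesis in the plastid, read 5.24, 4.37 and 5.32 in the MgCl2 arrays and 6.32, 5.84 and 6.04 in the Psm arrays. Its rise of 1.09 ± 0.24 (q = 0.028) stood beside 0.62 in the wild type and lost its call without MgCl2 replicate 2 (q = 0.075) and without Psm replicate 1 (0.13), 2 (0.052) or 3 (0.06). G3Pp1, a glycerol-3-phosphate permease induced by phosphate starvation, read 6.49, 5.74 and 6.50 against 7.39, 7.58 and 7.16, a rise of 1.14 ± 0.18 (q = 0.0025). In the wild type it changed by 0.99, just under 2-fold, and the difference was 0.14 (q = 0.96). Of 7 named genes of NAD metabolism AO was the 1 that rose.

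The median change of the 55 was 1.53 in lecrk-VI.2-2, 2.88 in the wild type and 2.39 in bak1-5. Tested against the wild type, the difference passed for 21, and in all 21 the mutant's change was the smaller. For the other 34 the test did not pass, which does not show that they changed alike. The SE of their differences ran from 0.21 (SDR3) to 0.90 (VSP1), above the median of 0.15 over all probe sets. The mutant's change was the larger for 5, G3Pp1, AO, AT1G19960, Hsp81.4 and 262082_s_at, by 0.01 to 0.47 and without passing the test. AT1G19960, a gene with no role given here, read 7.81, 6.47 and 7.72 against 9.26, 9.11 and 8.72 and rose by 1.70 ± 0.28 (q = 0.004), beside 1.66 in the wild type.

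Of the 21, the difference was largest in size for 262832_s_at, which matches several genes (-2.42, q = 0.00012), PR5 (-2.12, q = 0.0013) and CRT3 (-1.96, q = 4e-05). AT1G76960, a gene of unknown function, read 4.19, 4.25 and 4.24 in the MgCl2 arrays and 6.11, 6.61 and 6.21 in the Psm arrays. The rise of 2.08 ± 0.12 (q = 8.6e-09) was one of the most certain in the mutant, and still 1.83 smaller than that of the wild type (difference q = 1.8e-05). AT3G28540, a putative ATPase, rose by 1.82 ± 0.15 (q = 1.8e-06) from 4.01, 3.53 and 3.95 to 5.53, 5.89 and 5.51, and by 1.42 less than the wild type (difference q = 0.0014).

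**Figure D4:**
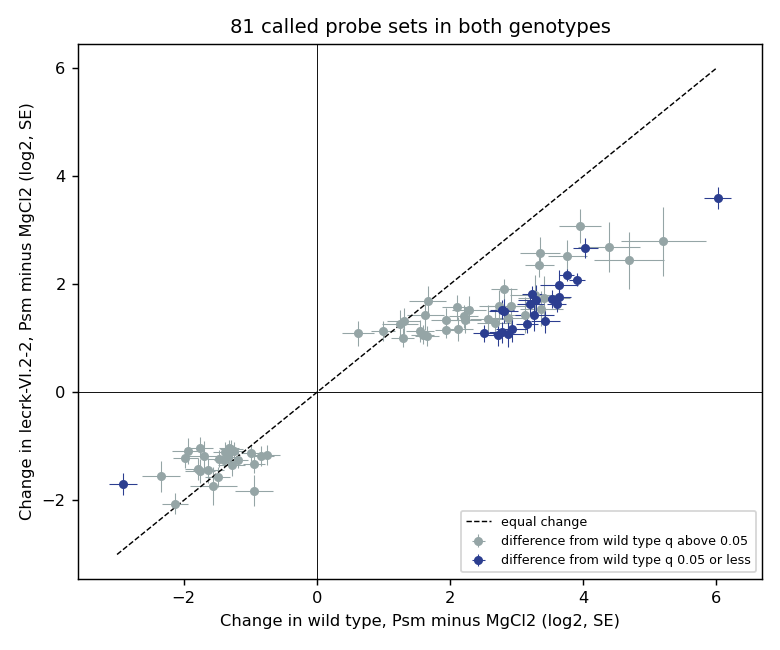
Change with Psm (log2, bars are SE) in the wild type (x axis) and in lecrk-VI.2-2 (y axis) for the 81 probe sets called in lecrk-VI.2-2. Blue points passed the test of the difference, grey points did not, and the dashed line marks equal changes. Raised probe sets lie mostly below the line, with 21 passing, while lowered probe sets scatter around it, with 1 passing.

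Of the 26 lowered probe sets 10 could be named, all by the platform's annotation. EXLA1, an expansin-like protein of the cell wall, fell most among the named. It read 6.36, 6.03 and 7.50 in the MgCl2 arrays and 4.73, 4.84 and 4.85 in the Psm arrays. The fall to a common low level, with a change of -1.82 ± 0.29 (q = 0.0025), compares with -0.94 in the wild type (difference q = 0.45). It was the 1 of 10 named expansins and xyloglucan enzymes that passed the test. AT1G29670, a GDSL-type lipase, read 6.96, 6.34 and 7.53 against 5.71, 5.42 and 5.04, a change of -1.55 ± 0.28 (q = 0.0082).

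AT1G04040, an acid phosphatase, read 7.53, 7.26 and 8.08 in the MgCl2 arrays and 6.45, 6.21 and 5.94 in the Psm arrays, a change of -1.42 ± 0.20 (q = 0.00084). AT5G44020, of the same family, changed by -1.08 ± 0.24 (q = 0.037), with a q of 0.12 without MgCl2 replicate 1 or 3, 0.17 without Psm replicate 2 and 0.094 without Psm replicate 3. AT4G19530, a resistance protein of the TIR-NBS-LRR class, read 6.80, 6.42 and 6.94 against 5.68, 5.62 and 5.61, a change of -1.08 ± 0.17 (q = 0.0025), beside -1.25 in the wild type.

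AT2G34510 had the smallest q of the named falls, with 7.78, 7.42 and 7.89 against 6.62, 6.53 and 6.37 and a change of -1.19 ± 0.13 (q = 4.5e-05). AT3G60320 changed by -1.23 ± 0.16 (q = 0.00042), the remorin AT3G61260 by -1.05 ± 0.17 (q = 0.0035) and AT2G30930 by -1.18 ± 0.18 (q = 0.0025). AT5G44680, a glycosylase-like protein, changed by -1.18 ± 0.28 (q = 0.047) but kept its call only without MgCl2 replicate 2 (q = 0.031), with 0.052 to 0.17 without each other array. The lowest of all, 248419_at, has no gene assigned here and read 9.86, 9.33 and 10.27 against 7.85, 7.66 and 7.79. Its change was -2.06 ± 0.20 (q = 1.4e-05), beside -2.13 in the wild type.

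**Figure D5:**
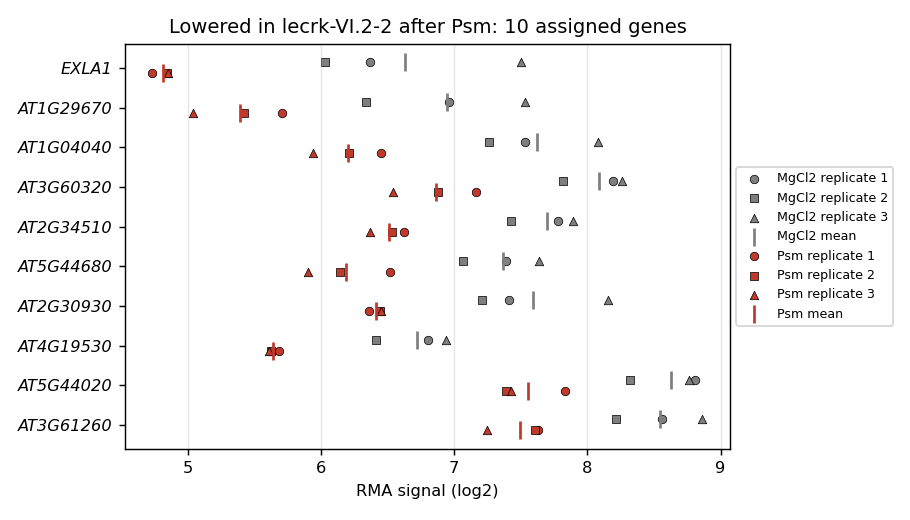
RMA signal (log2, x axis) of the 10 named genes lowered in lecrk-VI.2-2, 1 row a gene. Grey symbols are the 3 MgCl2 arrays, red symbols the 3 Psm arrays, and ticks the group means. All red symbols lie to the left of the grey ones, and for EXLA1, AT2G30930 and AT4G19530 they nearly coincide.

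Among the probe sets called in lecrk-VI.2-2, the falls were closer in size to those of the wild type than the rises were. Their median was -1.24 in lecrk-VI.2-2, -1.43 in the wild type and -2.02 in bak1-5. Of the 26, 21 were lowered in the wild type, where 151 (0.664% of all probe sets) were, and 25 in bak1-5, where 0.532% were. Those not called in the wild type were EXLA1, AT2G30930, 267318_at, 261926_at and 261211_at. Against the wild type the difference passed for 1, 264371_at, with -1.69 in the mutant, -2.91 in the wild type and a difference of 1.21 (q = 0.048). For 9 the mutant's change was the larger in size, without passing the test. Since the 26 were chosen by their change in lecrk-VI.2-2, which favours a large size there, the medians and the count passing are given as a description. They say nothing of the other probe sets lowered in the wild type.

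Array by array, the 55 raised probe sets averaged 1.56, 1.98 and 1.44 above the mock mean on Psm replicates 1, 2 and 3, and the 26 lowered averaged -1.21, -1.31 and -1.46. Psm replicate 2 was the highest array for 37 of the 55, Psm replicate 1 for 13 and Psm replicate 3 for 5, which were SHD, BIP1, CNX1, PR5 and 262832_s_at. Psm replicate 3 was the lowest array for 18 of the 26. All 3 Psm arrays were at least 1 from the mock mean for 37 of the 55 and 18 of the 26. MgCl2 replicate 2 was the lowest mock array for 49 of the 55 raised and for all 26 lowered probe sets, on average -0.47 and -0.35 from the mock mean.

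Several groups that often change in infected plants showed no member past the test in lecrk-VI.2-2. This held for 6 named genes of photosynthesis, 7 of flavonoids, 7 of abscisic acid, drought and cold, 7 of senescence, 6 of secretion and callose, 4 of aliphatic glucosinolates, 5 of nitrogen and sulfur, 4 of auxin, 2 of the cuticle and the 1 named clock gene. The largest changes missed the threshold after adjustment over all probe sets. For photosynthesis these were PSAN, a photosystem I subunit (-0.38 ± 0.11, q = 0.13), and LHCB4.3, an antenna protein (-0.35 ± 0.15, q = 0.45), for senescence SAG14 (0.92 ± 0.44, q = 0.55), for aliphatic glucosinolates SUR1 (0.69 ± 0.24, q = 0.25) and for secretion the syntaxin-binding SNAP33 (0.56 ± 0.18, q = 0.22). The few named members leave most of these pathways unmeasured here.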

How the data were processed

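The authors hybridised RNA of systemic leaves to 18 Affymetrix ATH1 arrays, 3 for each of 6 groups, and deposited log2 values per probe set made by RMA in the affy package (background correction, quantile normalization and probe summary). The number of arrays limits the precision. The genome build is not given in the sources used here. Of 22810 probe sets, 64 controls were left out. With limma 3.58.1 (lmFit, eBayes; R 4.3.3) a mean for each of the 6 groups was estimated from all 18 arrays, leaving 12 residual degrees of freedom, 18.03 with the prior, and q values were adjusted by Benjamini-Hochberg over 22746 probe sets. The fit was tested on simulated data. Replicates are separate samples of 12 plants each, so p-values measure only the spread between these samples.

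Gene names came from the platform's annotation (13473 probe sets) or from an exact match of 3 changes and 3 q values to the rows of the study's published gene list (1009). Where both named a probe set, 888 of 899 agreed and the others were left without a name. The values of that list served only for naming. Naming decided which genes could enter the list counts, medians and means, so these lean towards genes that rose in the wild type.

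Named genes were LecRK-VI.2, the 15 largest rises and 10 largest falls among called probe sets with 1 gene, those not called in the wild type, up to 4 members per list that passed (otherwise the 2 largest changes), all members where a count was 5 or fewer, and the 8 genes with the largest excess on 1 Psm array. PR1, PR2 and a few other list members and unassigned probe sets were added after their values were seen. Each gene is represented by its brightest probe set. A probe set was dim when no group mean reached 6. The members and lists were chosen with earlier results of these data known. Alternatives varied the samples fitted, variance prior, array weights, filter, scaling, block, thresholds and arrays. A planned search for promoter motifs was not run, and no sequence is reported.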

Additional observations from a re-analysis of the deposited data

Results flagged for a closer look

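The change with Psm in lecrk-VI.2-2 differed from that of the wild type, by a test of the difference itself in the same limma fit, for 37 of the genes and probe sets that the text names. Values are the change in lecrk-VI.2-2 minus the change in the wild type (log2, 3 arrays in each of 4 groups). In 35 of the 37 the value was negative. The 37 were chosen for the text in part by their changes, so their number says nothing of other genes.

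Among SA-linked genes it was -4.26 for PR2, -3.50 for PR1, -2.89 for DLO1 and -2.49 for GRX480 (a glutaredoxin that acts with TGA factors). It was -2.12 for PR5, -1.57 for DMR6, -1.28 for PAD4, -1.13 for AIG1 and -0.75 for EDS1. For genes outside the lists it was -1.87 for AT5G10760, -1.83 for AT1G76960, -1.42 for AT3G28540 and -1.36 for AT5G55450. It was -1.76 for XBAT34, a ubiquitin ligase with ankyrin repeats, and -1.30 for NAC036, a transcription factor of the NAC family. Among receptors it was -1.90 for AT1G35710, -1.84 for SOBIR1, -1.67 for HR4, -1.66 for WAK1, -1.42 for the shared probe set of the receptor-like protein RLP37 and -1.25 for CRK4. Among ER chaperones it was -1.96 for CRT3, -1.66 for CNX1, -1.58 for SHD, -1.57 for BIP1, -1.27 for CRT1b, -1.16 for SDF2 and -1.14 for PDIL1-1. Among JA genes it was -2.46 for JAZ1, -2.21 for JAZ5 and -1.80 for MYC2. It was -2.42 for 262832_s_at, -1.81 for GSTF6 and -1.80 for AT5G52750, which encodes a protein with a heavy-metal-associated domain.

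For ASN1, a dark-inducible asparagine synthetase, the value was -1.85, and its own change in lecrk-VI.2-2 did not pass the test. The 2 positive values were 1.21 for 264371_at, which is lowered and has no gene assigned here, and 0.66 for PSAN, the photosystem I subunit. PSAN changed by -0.38 in lecrk-VI.2-2 and by -1.04 in the wild type. Over all probe sets the difference passed below the wild type for 252 (1.11%) and above it for 59 (0.259%).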

How the results depend on the processing

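With array weights, 156 probe sets were raised, 49 lowered, 506 rose and 644 fell by q alone, and 35 raised ones had a smaller change than in the wild type. With the 6 lecrk-VI.2-2 arrays fitted alone, on their own spread, these were 20 raised (all among the 55), and 26 and 22 by q alone. With a fold of 1.2 inside the test they were 30 raised, and 37 and 24 by q alone. At a q of 0.01 the counts by q alone were 63 and 37, and after cyclic loess 274 and 200. With the replicate number as a block, 70 fell by q alone, and 46 were raised and 26 lowered. Arrays of the same number had correlations of deviations of 0.24, -0.30 and -0.44, and MgCl2 replicate 2 deviated with Psm replicate 3 (0.57). Deviations within groups of 3 arrays cannot decide whether the numbers pair the arrays. The single lowered probe set with a smaller change than in the wild type was not called (0) with the block, at a q of 0.01, with the fold inside the test, or without both arrays with fewest bright probe sets. Leaving out 1 array at a time gave 32 to 81 raised, 17 to 46 lowered, 56 to 186 and 43 to 243 by q alone, and 16 to 34 raised and 0 to 1 lowered probe sets with a smaller change. The cause of these shifts was not tested. Fewer arrays leave fewer degrees of freedom. Of 78 genes and probe sets that the text names and that passed the q threshold, 28 kept it under all 16 alternatives and 50 lost it under at least 1. None of them changed direction where its call passed. The trend with a robust prior, the filter at 6, median centring and the median of the MgCl2 arrays kept every count and mean over called probe sets within its limit. The search for promoter motifs was not run. Dim probe sets may limit what could be seen of SA synthesis and signaling genes, although all 11 named passed the test in the wild type on the same probe sets. Most listed genes without a name were not analysed here.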

Other observations

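A few further groups held single members that passed the test in lecrk-VI.2-2. BTS, an E3 ligase that restrains iron uptake, was the 1 of 5 named iron genes that rose, by 0.68 ± 0.14 (q = 0.025). Its dim probe set read 4.36, 4.32 and 4.39 in the MgCl2 arrays and 5.09, 5.34 and 4.68 in the Psm arrays. It had a q of 0.17 without Psm replicate 2, 0.092 without Psm replicate 1, 0.067 without MgCl2 replicate 1 and 0.063 without MgCl2 replicate 3. EXPA8, an expansin, changed by 0.81 ± 0.34 in lecrk-VI.2-2 and by -0.80 in the wild type, and neither its own change in the mutant (q = 0.43) nor the difference (q = 0.13) passed.

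MgCl2 replicate 2 read at least 1 log2 unit below all 5 other arrays of its genotype on 21 probe sets. In the wild type Psm replicate 1 did so on 21 as well, and for every other array of the 18 the count was 0 to 5.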
